A study of Rattus norvegicus with 24 samples.

Results

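The solute carrier (SLC) genes encode membrane proteins that move ions, metals, sugars, amino acids, nucleotides and vitamins across the plasma membrane and the membranes of organelles. Families are numbered, and members of a family usually share a kind of substrate. In prostate epithelium, which secretes fluid rich in zinc and citrate, zinc carriers and mitochondrial carriers are a long-standing subject. In brain, SLC proteins clear and package neurotransmitters. The genes were found by matching each array probe's accession to a rat symbol that starts with Slc and a digit. Of 216 such symbols with 271 probes on the array, 203 genes with 255 probes were well above background on 3 or more arrays of at least 1 tissue, by the scanner software's flag. These 203 genes, out of 8945 named genes on the array, are described here by substrate class. The other 13 symbols, among them Slc2a2, Slc5a1, Slc12a3, Slc34a2 and the dopamine carrier gene Slc6a3, did not reach that mark in any tissue.

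RNA came from 12-week-old Sprague-Dawley rats 16 h after 1 intraperitoneal injection of dihydrotestosterone (DHT) at 10 mg/kg or of vehicle. DHT is the potent androgen that many tissues form from testosterone. The groups were prostate, skin and forebrain of males castrated 3 days earlier, with vehicle or DHT, and ovary of intact females, with vehicle or DHT, so that castration was shared by vehicle and DHT males. Each of the 8 groups had 3 arrays, and forebrain vehicle array 3, which failed the submitters' quality control per its label, was left out, leaving 23 arrays. The series design text names castrated males for every tissue and calls the samples biological replicates, while by the labels of the ovary samples these rats were females that had not been operated on, and no label mentions separate animals. The p-values therefore measure the spread between these samples, which may in part be technical.

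Each value is a log2 level, the log2 processed signal relative to its array's 75th percentile, so that a level of 0 is that percentile. Between 54.6% and 97.0% of probes were well above background on an array, and no spot was saturated. Prostate vehicle array 3 and ovary vehicle arrays 1 and 3 had a narrower spread of signals than other arrays of their tissues. On ovary vehicle arrays 1 and 3, 96.5% and 97.0% of probes were well above background, against 61.8% to 78.5% on the other ovary arrays. The marker lists of prostate epithelium, neurons, keratinocytes and ovary were highest in the tissue of their label. Of the 6 keratinocyte markers, 3 were on the array. The mean level of prostate epithelial markers was 4.17 in vehicle and 4.76 in DHT prostate and 0.84 or lower in other groups, that of neuronal markers 3.07 and 3.72 in forebrain and -3.09 or lower elsewhere, that of keratinocyte markers 5.45 and 5.96 in skin and 0.87 or lower elsewhere, and that of ovarian markers 2.32 and 2.28 in ovary and -3.85 or lower elsewhere. In RNA from whole tissue, fewer cells of a type and less RNA per cell cannot be told apart. Of the 203 genes, 138 passed the background mark in 4 tissues, 23 in 3, 22 in 2 and 20 in 1. The number measured was 155 in prostate, 190 in ovary, 156 in skin and 184 in forebrain. Ovary vehicle arrays 1 and 3 passed nearly every probe, so the ovary number and the split by tissues rest in part on them. So do the counts of ovary arrays above background given below.

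DHT moved SLC genes both ways in prostate. Of 155 SLC genes tested, 15 rose and 8 fell (limma, Benjamini-Hochberg adjusted p below 0.05 over all 23738 genes of the tissue). Over all genes 5.03% rose and 4.61% fell. The vehicle and DHT arrays did not overlap for 64 of the 155 SLC genes and for 35.8% of all genes, and the median log2 difference (DHT minus vehicle) was 0.0035 for SLC genes and 0.06 for all genes. The 23 SLC genes that passed all had groups that did not overlap, which rests on the same 6 arrays as the test and is no separate support. Of the 23, 20 were well above background on all 6 arrays, as were 132 of the 155 tested. Among the genes that passed, the vesicular zinc carrier gene Slc30a2 fell by 3.10, the iron exporter gene Slc40a1 by 1.91 and the carnitine carrier gene Slc22a5 by 1.76 on the log2 scale, and the mitochondrial carrier gene Slc25a30 rose by 2.17. Larger differences than that of Slc25a30 that did not pass were those of the bile acid carrier relative Slc10a4 (3.61 ± 0.96, adjusted p = 0.0669), the sodium-proton exchanger Slc9a2 (2.76 ± 0.75, 0.0693) and the peptide carrier Slc15a1 (-2.67 ± 0.66, 0.0558). By class, 4 of 20 mitochondrial carriers rose and 0 fell, and 2 of 5 genes in the class named for nucleotide sugars or acetyl-CoA rose and 0 fell. Further, 2 of 23 amino acid carriers rose and 3 fell, 2 of 22 ion carriers rose and 0 fell, and 1 of 11 zinc carriers rose and 1 fell. In the remaining classes with changes, 2 of 11 carriers of neurotransmitters, amines or osmolytes rose and 1 fell, 1 of 17 carriers of organic ions, bile acids or peptides rose and 1 fell, 1 of 8 sugar carriers rose, and 1 of 6 carriers of other metals or heme and 1 of 5 unassigned carriers fell. None of the 8 monocarboxylate or dicarboxylate carriers, 6 vitamin carriers, 5 nucleoside carriers, 5 lipid or choline carriers and 2 urea carriers passed. The count of 23 was 9 without vehicle array 1, 7 without vehicle array 2, 26 without vehicle array 3, 15 without DHT array 1, 6 without DHT array 2 and 11 without DHT array 3. Slc30a2, Slc35b1, Slc25a22, Slc40a1 and Slc46a3 passed in all 6 of these fits. With background correction by normexp the count was 5, namely Slc30a2, Slc22a5, Slc25a22, Slc25a29 and Slc35b1.

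**Figure D1:**
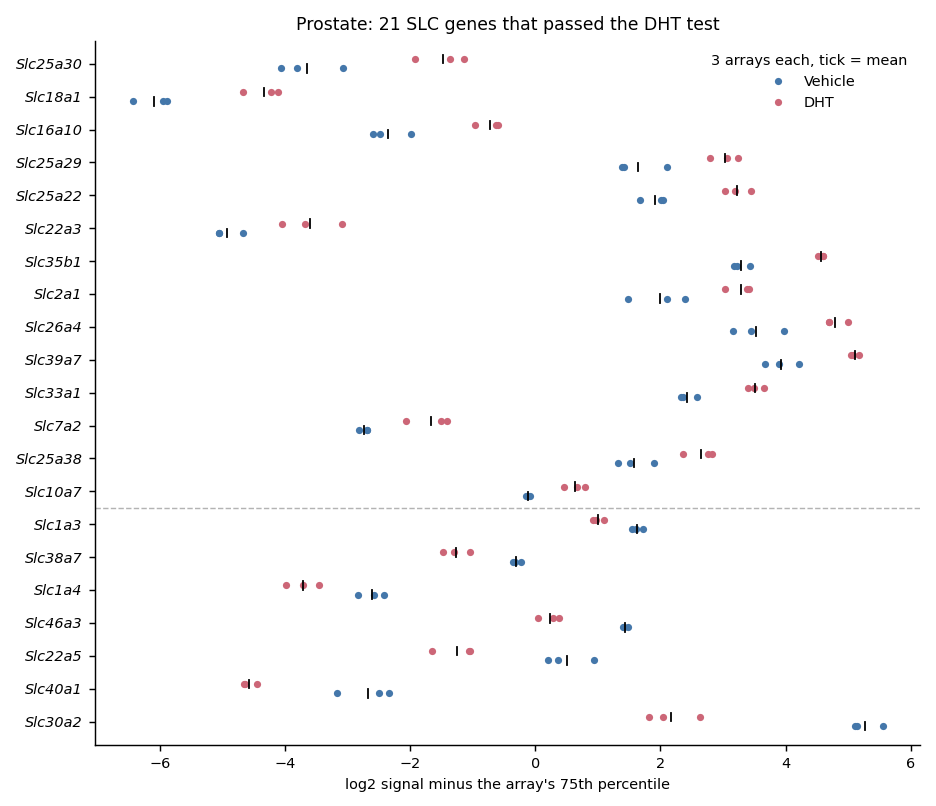
Log2 level (signal relative to the array's 75th percentile, horizontal axis) of 21 of the 23 SLC genes that passed the DHT test in prostate, with 3 vehicle and 3 DHT arrays as points and group means as ticks. The 14 genes above the dashed line rose and the 7 below it fell, from Slc25a30 (2.17) at the top to Slc30a2 (-3.10) at the bottom, and the vehicle and DHT points of a gene do not overlap.

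**Figure D2:**
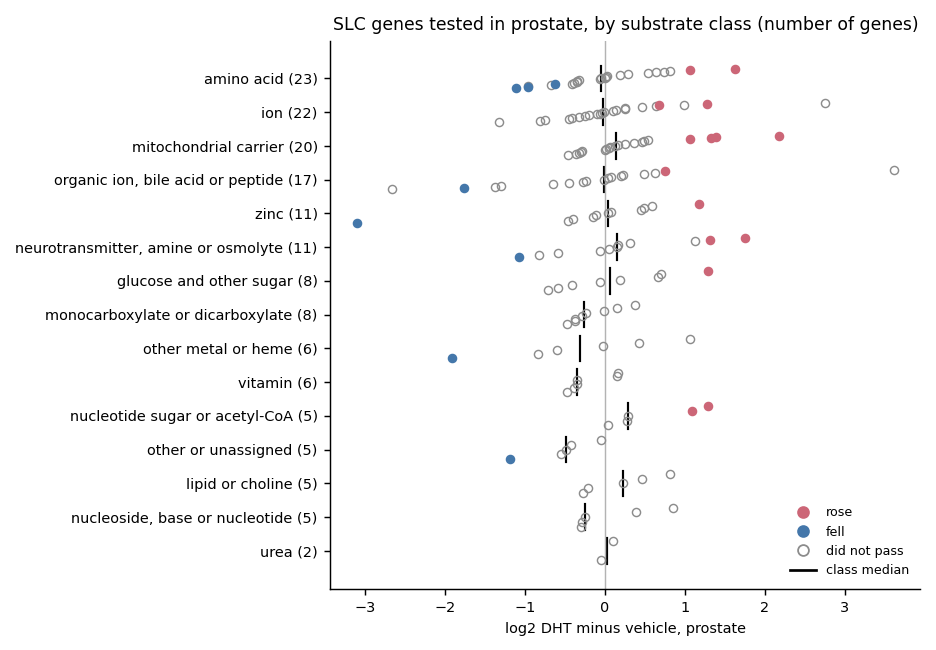
Log2 difference (DHT minus vehicle) of the SLC genes tested in prostate, 1 point per gene, by substrate class with the number of genes tested, where filled points passed the test and black lines are class medians. The 4 filled mitochondrial carriers all lie to the right of 0, while the 2 filled zinc carriers lie on opposite sides. Slc7a6os, which is named for its neighbour and encodes no carrier, is not drawn.

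Zinc carriers fall into the Slc30 family, which moves zinc out of the cytosol, and the Slc39 family, which moves it into the cytosol. Slc30a2, which loads zinc into vesicles, stood at levels of 5.55, 5.14 and 5.10 on the prostate vehicle arrays and at 1.82, 2.63 and 2.04 on the DHT arrays. It fell by 3.10 ± 0.26 on the log2 scale (SE, adjusted p = 0.00408), and its other probe had a difference of -3.61. Slc39a7, which releases zinc from the endoplasmic reticulum and Golgi, stood at 3.67, 3.89 and 4.22 with vehicle and at 5.08, 5.18 and 5.05 with DHT. It rose by 1.18 ± 0.18 (adjusted p = 0.0155), and passed in 2 of the 6 fits that left out 1 array. The other 9 zinc carriers did not pass. Slc39a9 had a difference of 0.58 ± 0.18 (adjusted p = 0.095) and Slc39a6 one of -0.46 ± 0.18 (0.161), each with groups that did not overlap. Slc39a11 (0.45), Slc39a4 (0.49), Slc39a8 (-0.40, and 0.00 and 0.08 on its other probes), Slc39a3 (-0.15), Slc30a4 (-0.11), Slc30a1 (0.08) and Slc30a3 (0.03) had overlapping groups. Slc30a1, the zinc exporter of the plasma membrane, lay between -0.97 and -0.81 with vehicle and between -1.02 and -0.42 with DHT.

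The bases just upstream of 5 genes named in these results show what lies next to their starts. They are the zinc carriers that moved, the iron exporter, and genes of glucose and acetyl-CoA transport that rose. The sequences are from RefSeq on GRCr8, 250 bases ending just before an annotated start, 5′ to 3′ on the gene's strand. Capitals mark 3 short motifs searched on both strands: AGAACA, a hexamer recognised by the androgen receptor and related steroid receptors; TGCACNC or TGCGCNC, the core bound by the zinc-sensing factor MTF-1; and CCACG, part of the endoplasmic reticulum stress element. Matches may overlap.
Slc30a2, start at the upstream site, chr5:151843201-151843450, plus strand: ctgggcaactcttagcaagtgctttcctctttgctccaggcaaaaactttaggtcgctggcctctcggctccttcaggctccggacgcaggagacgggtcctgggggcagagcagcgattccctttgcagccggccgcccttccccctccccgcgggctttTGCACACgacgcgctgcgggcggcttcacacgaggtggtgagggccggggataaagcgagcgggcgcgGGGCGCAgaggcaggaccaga
Slc30a2, start at the downstream site, chr5:151843931-151844180, plus strand: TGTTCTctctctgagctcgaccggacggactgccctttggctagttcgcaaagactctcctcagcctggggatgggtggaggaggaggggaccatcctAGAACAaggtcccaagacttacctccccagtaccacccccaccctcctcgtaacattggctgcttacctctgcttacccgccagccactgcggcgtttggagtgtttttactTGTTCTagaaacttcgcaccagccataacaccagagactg
Slc39a7, chr20:4824809-4825058, plus strand: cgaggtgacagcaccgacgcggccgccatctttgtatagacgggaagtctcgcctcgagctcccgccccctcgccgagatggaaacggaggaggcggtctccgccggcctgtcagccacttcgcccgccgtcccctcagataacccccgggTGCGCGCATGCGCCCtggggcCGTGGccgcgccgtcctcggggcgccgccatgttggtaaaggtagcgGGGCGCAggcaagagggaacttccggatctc
Slc40a1, chr9:55543461-55543710, minus strand: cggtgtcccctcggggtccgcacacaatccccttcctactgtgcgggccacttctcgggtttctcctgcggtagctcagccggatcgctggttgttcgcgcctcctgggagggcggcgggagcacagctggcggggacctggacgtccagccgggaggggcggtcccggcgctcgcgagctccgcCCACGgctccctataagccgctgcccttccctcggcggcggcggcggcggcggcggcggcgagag
Slc2a1, chr5:138002272-138002521, plus strand: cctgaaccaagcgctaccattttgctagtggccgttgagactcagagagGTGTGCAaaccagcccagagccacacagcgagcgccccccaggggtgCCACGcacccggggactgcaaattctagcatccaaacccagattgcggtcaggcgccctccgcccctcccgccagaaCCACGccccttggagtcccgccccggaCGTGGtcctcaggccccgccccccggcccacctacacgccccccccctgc
Slc33a1, chr2:150587417-150587666, minus strand: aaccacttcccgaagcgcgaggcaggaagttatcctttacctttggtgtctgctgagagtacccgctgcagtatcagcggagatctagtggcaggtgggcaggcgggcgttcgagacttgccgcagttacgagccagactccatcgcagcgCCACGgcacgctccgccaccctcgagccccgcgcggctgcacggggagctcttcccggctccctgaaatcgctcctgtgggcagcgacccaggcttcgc
The upstream start of Slc30a2 had 2 matches to the MTF-1 core and 0 to AGAACA, and its downstream start had 0 and 3. The window of Slc39a7 shown had 4 matches to the MTF-1 core and 1 to CCACG, and that of its other annotated start, which overlaps it, had 4 and 2. The window of Slc2a1 had 1 and 3. In all, 166 of the 203 genes had a promoter in the table, 17 of the 23 that passed in prostate among them. AGAACA occurred in 17.5% of all 33469 windows of the table, in 10.8% of the 176 windows of SLC genes and in 2 of the 21 windows of these 17 genes. The MTF-1 core occurred in 20.6%, 31.2% and 12 of 21, and CCACG in 27.2%, 41.5% and 12 of 21. Some of the 21 windows belong to the same gene and overlap. A match describes letters in a window and was not tested for binding.

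Among carriers of other metals, Slc40a1, which exports iron from cells, stood at -2.50, -2.34 and -3.16 with vehicle and at -4.45, -4.65 and -4.63 with DHT. It fell by 1.91 ± 0.24 (adjusted p = 0.00879) and was well above background on 2 of the 3 DHT arrays. With normexp its difference was -1.19 (adjusted p = 0.110). Slc31a1, which takes up copper, had a difference of 1.07 ± 0.27 that did not pass (adjusted p = 0.0567).

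Of 8 sugar carriers 1 passed. Slc2a1, the widespread glucose carrier GLUT1, stood at 1.47, 2.11 and 2.40 with vehicle and at 3.04, 3.39 and 3.42 with DHT, a rise of 1.29 ± 0.27 (adjusted p = 0.0344), and passed in 1 of the 6 fits that left out an array. Slc2a4, the insulin-responsive carrier GLUT4 of muscle and fat, had a difference of 0.66 ± 0.33 (adjusted p = 0.248) and 1.80 on its other probe. The mean level of adipocyte markers in prostate lay between -0.96 and -0.24 with vehicle and between 0.10 and 0.50 with DHT, with Lep, 1 of the 4 on the array, above background in neither group, and its part in this value was not tested. Slc2a3 did not reach the background mark in prostate.

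In the class named for nucleotide sugars or acetyl-CoA, whose products serve the endoplasmic reticulum and Golgi, all differences were above 0, and 2 of 5 genes passed. The class name does not cover the substrate of every member, as with Slc35b1 below. Over all genes tested in prostate, 13116 of 23738 differences were above 0. Slc35b1, which exchanges ATP and ADP across the membrane of the endoplasmic reticulum, stood at 3.23, 3.18 and 3.43 with vehicle and at 4.52, 4.60 and 4.60 with DHT, a rise of 1.29 ± 0.14 (adjusted p = 0.00659). Slc33a1, which brings acetyl-CoA into that organelle, stood at 2.36, 2.32 and 2.59 and at 3.40, 3.65 and 3.49, a rise of 1.09 ± 0.16 (adjusted p = 0.0124). The DHT arrays of both genes lay close together and above every vehicle array. The other genes of this class, Slc35b2 (0.29), Slc35a4 (0.27) and Slc35a3 (0.03, with vehicle array 3 left out as an outlier spot), did not pass.

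Mitochondrial carriers bring amino acids, phosphate, nucleotides and citrate across the inner membrane. Slc25a30, a mitochondrial carrier of the uncoupling protein branch, stood at -4.06, -3.81 and -3.07 with vehicle and at -1.92, -1.14 and -1.37 with DHT, a rise of 2.17 ± 0.32 (adjusted p = 0.0139). Slc25a30 passed in 4 of the 6 fits that left out an array, and with normexp its difference was 1.01 (adjusted p = 0.210). Slc25a22, a glutamate carrier, rose by 1.32 ± 0.18 (adjusted p = 0.0112), from between 1.67 and 2.04 to between 3.04 and 3.45. Slc25a29, which carries basic amino acids, rose by 1.39 ± 0.25 (adjusted p = 0.0221), with 1.18 on its other probe, and passed in 2 of the 6 fits that left out an array. Slc25a38, which carries glycine for heme synthesis, rose by 1.07 ± 0.22 (adjusted p = 0.0325). The citrate carrier Slc25a1 had a difference of -0.0011, the phosphate carrier Slc25a3 one of 0.01 and the ADP/ATP carriers Slc25a4 and Slc25a5 ones of 0.06 and 0.46, and none of these passed. In all, 14 of the 20 differences were above 0, as were 78 of 155 for SLC genes and 13116 of 23738 for all genes.

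Amino acid carriers of the plasma membrane moved in both directions. Slc16a10, which carries aromatic amino acids, stood at -2.48, -2.60 and -1.99 with vehicle and at -0.63, -0.60 and -0.97 with DHT, a rise of 1.63 ± 0.22 (adjusted p = 0.0102), and passed in 5 of the 6 fits that left out an array. Slc7a2, which carries arginine and other cationic amino acids, rose by 1.07 ± 0.21 (adjusted p = 0.0288). Slc1a4, a carrier of neutral amino acids such as serine and alanine, fell by 1.11 ± 0.20 (adjusted p = 0.0236), and the lysosomal glutamine carrier Slc38a7 fell by 0.97 ± 0.16 (adjusted p = 0.0197). When an array was left out, Slc1a4 passed in 1 of 6 fits and Slc38a7 in 3. Slc1a3, a glutamate carrier known from glia, stood at 1.73, 1.55 and 1.61 with vehicle and at 1.10, 0.92 and 0.97 with DHT. Its fall of 0.63 ± 0.14 (adjusted p = 0.0426) passed in 0 of the 6 fits that left out an array. The heavy chain Slc3a2, shared by several amino acid carriers, had a difference of -0.41 (adjusted p = 0.116).

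Carriers of organic ions and amines included opposite changes within the Slc22 family. Slc22a5, the carnitine carrier of the plasma membrane, stood at 0.21, 0.37 and 0.95 with vehicle and at -1.66, -1.04 and -1.06 with DHT, a fall of 1.76 ± 0.27 (adjusted p = 0.0152), with a difference of -2.09 on its other probe, and passed in 4 of the 6 fits that left out an array. Slc22a3, a carrier of monoamines, rose by 1.32 ± 0.27 (adjusted p = 0.0341), with 2 of its 3 vehicle arrays well above background. This call held in 1 of the 6 fits that left out an array and in 4 of 8 other settings, and with normexp the difference was 0.12 (adjusted p = 0.907). Slc18a1, which loads monoamines into vesicles, was not well above background on any vehicle array and was at least 1.73-fold higher with DHT. This bound takes the brighter group's mean against the lowest signal well above background or the probe's own, whichever was higher, on each vehicle array. Slc18a1 met the background mark through its 3 DHT arrays alone. Its place among the 15 genes that rose therefore follows in part from the choice of genes. It could be tested in 3 of the 6 fits that left out an array, and passed in those 3. The measured means differed by 1.75 ± 0.23, and with background correction by normexp by -0.01. Slc10a7, of the bile acid carrier family, rose by 0.75 ± 0.15 (adjusted p = 0.0314).

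Of the ion carriers, Slc26a4, the anion exchanger pendrin, stood at 3.44, 3.15 and 3.97 with vehicle and at 4.69, 4.70 and 4.99 with DHT, a rise of 1.27 ± 0.24 (adjusted p = 0.0266), and passed in 1 of the 6 fits that left out an array. Slc9a2, which did not pass, had DHT arrays spread over -2.89, -0.84 and 0.25. The sodium-potassium-chloride carrier Slc12a2 had 0.99 ± 0.26 (adjusted p = 0.0649), with 1.63 on its other probe. Slc46a3, a lysosomal carrier outside the classes above, fell by 1.19 ± 0.15 (adjusted p = 0.00896), from between 1.40 and 1.48 to between 0.05 and 0.38.

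In ovary, 0 of 190 SLC genes and 0% of 29400 genes passed the test of DHT (limma). At an unadjusted p below 0.05 there were 15 SLC genes, 1 higher and 14 lower with DHT, against 10.5% of all genes. The median difference was -0.24 for SLC genes and -0.23 for all genes. Among the lowest p-values were those of Slc4a10, a sodium-bicarbonate carrier, which was not well above background with DHT and at least 2.76-fold lower (adjusted p = 0.157), the nucleoside carrier Slc28a3, likewise not well above background with DHT and at least 4.51-fold lower (0.21), Slc37a1 of the sugar phosphate family (-1.72 ± 0.36, 0.213) and Slc6a15, a neutral amino acid carrier (-2.34 ± 0.65, 0.415). None of them passed. Slc4a10 and Slc28a3 met the background mark in ovary through vehicle arrays alone, so that their lower values with DHT follow in part from the choice of genes. Slc6a15 stood at -2.87 and -2.82 on vehicle arrays 1 and 3, those with the narrow spread of signals, at -4.82 on vehicle array 2 and between -6.64 and -5.30 with DHT. The part of that narrow spread in these differences was not tested. Without vehicle array 2, the remaining pair against DHT gave 39 SLC genes that passed, all lower with DHT, while leaving out any other ovary array gave 0. Zinc and sugar carriers of ovary had differences from -2.24 (Slc2a3) to 0.27 (Slc2a5). Slc30a2 had -0.09 ± 0.42 with overlapping groups, and -0.835 on its other probe. Slc30a3 (-1.52), Slc39a9 (-0.44), Slc30a1 (-0.42), Slc2a4 (-0.26), Slc39a11 (-0.23) and Slc39a4 (-0.17) were lower with DHT, and Slc39a7 (0.21), Slc39a6 (0.14), Slc39a8 (0.09), Slc39a3 (0.08) and Slc30a4 (0.08) were higher, all with an adjusted p of 0.484 or more. The other probe of Slc2a4, well above background on 6 ovary arrays, had -1.24.

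In skin, 0 of 156 SLC genes and 0% of 24122 genes passed (limma), with 5 SLC genes and 4.94% of all genes at an unadjusted p below 0.05. The lowest p-values were those of the citrate carrier Slc13a5 (-2.55 ± 0.60), the amino acid carrier Slc7a9 (2.08 ± 0.60), the mitochondrial carrier Slc25a47 (-1.69 ± 0.60), the nucleoside carrier Slc28a2 (0.80 ± 0.31) and the amino acid carrier Slc38a4 (1.60 ± 0.66), each with an adjusted p of 0.753. Muscle markers differed widely among the skin arrays. The mean level of skeletal muscle markers was -2.15 on vehicle array 1 and between 8.91 and 11.3 on the other skin arrays. Slc2a4, the glucose carrier of muscle and fat, stood at -0.03 on vehicle array 1, at 4.25 and 4.28 on the other vehicle arrays and at 5.93, 4.33 and 4.73 with DHT. Its difference of 2.17 ± 1.19 did not pass, and the part of muscle content in it was not tested. On DHT array 1, which had the highest muscle markers, Slc30a1 (-0.60), Slc39a6 (1.10) and Slc30a4 (-3.78) lay below the other skin arrays, which spanned 1.70 to 2.69, 3.49 to 4.27 and -1.99 to -0.23. Slc2a1 had a difference of -0.13 ± 0.36. All zinc carriers of skin had overlapping groups. The differences were -1.28 for Slc30a1, -1.14 for Slc39a6 and -0.99 for Slc30a4, and between -0.48 (Slc39a8) and 0.64 (Slc30a3) for the others.

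In forebrain, with 3 DHT and 2 vehicle arrays, 0 of 184 SLC genes and 0% of 26361 genes passed (limma). At an unadjusted p below 0.05 there were 57 SLC genes, 24 higher and 33 lower, against 27.4% of all genes. The lowest p-values were those of the cholinergic carriers. Slc18a3, which loads acetylcholine into vesicles, stood at 0.61 and 0.78 with vehicle and at -0.85, -1.05 and -0.99 with DHT, a difference of -1.65 ± 0.13. Slc5a7, which returns choline to cholinergic nerve endings, stood at -1.39 and -1.13 and at -3.58, -4.24 and -3.96, a difference of -2.67 ± 0.23. The anion exchanger Slc4a2 (-1.01 ± 0.12), Slc39a8, a zinc and manganese carrier (-0.88 ± 0.12), and Slc27a5 of the fatty acid and bile acid ligases (-1.33 ± 0.20) followed, and all 5 had an adjusted p of 0.0715, which did not pass. The zinc carriers Slc30a1 (0.72 ± 0.14), Slc30a3, which fills synaptic vesicles (0.94 ± 0.19), and Slc30a4 (0.53 ± 0.14) were higher on each DHT array, and Slc2a1 was lower (-0.61 ± 0.14), all without passing (adjusted p between 0.0757 and 0.0961). Vehicle and DHT arrays of forebrain did not overlap for 102 of 184 SLC genes and for 12474 of 26361 genes of the tissue. Slc39a4 stood at -0.89 and 2.52 on the vehicle arrays and between -1.80 and -1.31 with DHT. The other zinc carriers had differences from -0.26 (Slc39a6) to 0.42 (Slc39a9), and Slc2a4 had -0.67. The other probe of Slc2a4, well above background on 2 forebrain arrays, had -0.003. Markers of other cell types moved with the groups. Choroid plexus markers had a mean level of -0.93 and 1.18 on the vehicle arrays and of -4.90 to -3.82 with DHT, skeletal muscle markers -0.38 and -0.33 against -4.56 to -3.02, and neuronal markers 3.05 and 3.09 against 3.63 to 3.78. Oligodendrocyte markers stood at 5.10 and 5.32 against 3.86 to 4.61, and astrocyte markers at 0.76 and 1.11 against 0.46 to 0.55. The part of these in the differences was not tested. Without vehicle array 1, which leaves a lone vehicle array assumed to vary like the DHT group, 1 SLC gene passed.

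Whether the response to DHT differed between tissues was tested in 1 fit of all 23 arrays with slide as a random block (moderated F test of limma over 31154 genes, adjusted p). It differed for 9 of 203 SLC genes and for 2.63% of all genes. Ovary came from intact females and the other tissues from castrated males. In a comparison with ovary, tissue, sex and castration therefore cannot be told apart. Of the 9, 6 had passed in prostate. The difference for Slc22a5 (adjusted p = 0.00302) came with a difference between group means (DHT minus vehicle) of -1.76 in prostate, -0.04 in ovary, 0.76 in skin and -0.41 in forebrain. Its other probe had -2.09 in prostate and -0.555 in ovary. Slc30a2 (adjusted p = 0.0266) had -3.10 in prostate, -0.09 in ovary, 0.52 in skin and -0.14 in forebrain. Its other probe, which was not in this fit, had -3.61 in prostate, -0.835 in ovary, 0.05 in skin and -0.60 in forebrain. In forebrain that probe was well above background on 2 arrays. The contrasts of the Slc30a2 change against that in prostate, as fitted with the slide block, were 3.02 ± 0.70 for ovary, 3.62 ± 0.70 for skin and 2.92 ± 0.75 for forebrain (SE). Slc35b1 (0.0251) had 1.29 in prostate and between -0.25 and 0.03 elsewhere, Slc39a7 (0.0457) had 1.18 and between -0.22 and 0.24 elsewhere, and Slc38a7 (0.0310) had -0.97 and between -0.17 and 0.53 elsewhere. The latter 3 thus had their largest change in prostate.

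Slc37a1 (adjusted p = 0.00539) followed another pattern, with -0.58 in prostate, -1.72 in ovary, 0.85 in skin and 0.53 in forebrain. Slc18a1 (0.0247), Slc4a10 (0.0402) and the bile acid carrier relative Slc10a4 (0.0474) each had at least 1 group with no array well above background. In prostate, 1 of 3 vehicle and 3 of 3 DHT arrays had Slc10a4 above background, and in ovary 2 of 3 and 0 of 3 did. Slc25a22, whose rise passed in prostate, did not pass this test (adjusted p = 0.0522). The count of 9 was 53 without ovary vehicle array 2, 2 without prostate vehicle array 1 or 2, 3 without prostate DHT array 1 or 2, 4 without forebrain vehicle array 2, and 5 without prostate DHT array 3 or forebrain DHT array 2 or 3. Slc22a5 and Slc37a1 passed in all 23 fits that left out 1 array, Slc30a2 and Slc18a1 in 19, Slc35b1 in 17, Slc38a7 in 14, Slc4a10 in 9, Slc39a7 in 5 and Slc10a4 in 4. In 9 other settings of the processing, Slc22a5 and Slc35b1 passed in 8, Slc30a2 and Slc37a1 in 7, and Slc18a1 and Slc10a4 in 6. Slc39a7 passed in 4 of these settings, Slc38a7 in 3 and Slc4a10 in 2. The 15 genes that rose in prostate were also higher with DHT in 7 of 14 cases measured in ovary, 6 of 13 in skin and 5 of 14 in forebrain. The 8 that fell were lower in 8 of 8 in ovary, 3 of 7 in skin and 5 of 8 in forebrain. None of these genes passed in those tissues. Over all genes, differences were above 0 for 9875 of 29400 in ovary, 12985 of 24122 in skin and 12597 of 26361 in forebrain. In ovary 134 of 190 SLC genes were lower, and so was the median SLC gene.

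**Figure D3:**
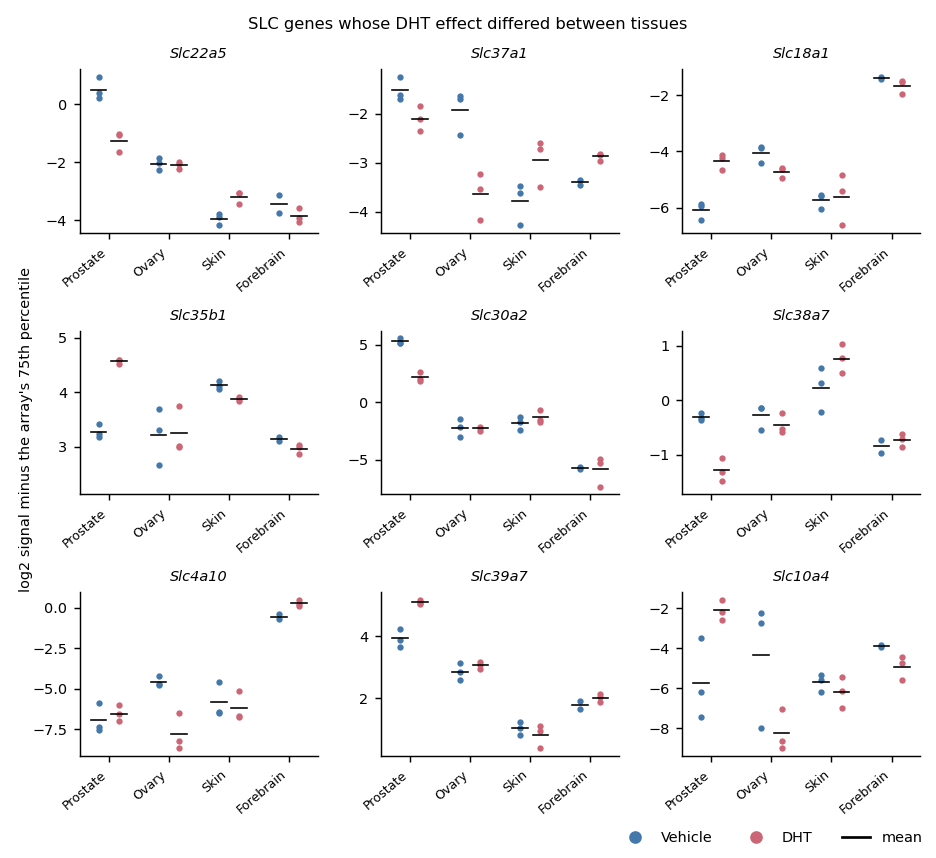
Log2 level (signal relative to the array's 75th percentile, vertical axis, own scale in each panel) on each array of the 9 SLC genes whose DHT effect differed between tissues, with vehicle in blue, DHT in red and group means as lines. In the panels of Slc22a5, Slc35b1, Slc30a2, Slc38a7 and Slc39a7 the widest gap between vehicle and DHT is in prostate, and in that of Slc37a1 it is in ovary.

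A gene was counted as higher in a tissue when its level there, the mean of the vehicle and DHT group means, exceeded that in each of the other tissues (limma, adjusted p below 0.05 for all 3 differences, slide as a random block). This held for 51 of 203 SLC genes in forebrain, 25 in ovary, 24 in skin and 23 in prostate. The shares of all 31154 genes were 15.6% in forebrain, 8.26% in ovary, 17.2% in skin and 11.2% in prostate. The other 80 SLC genes were higher in no single tissue. Here too, tissue, sex and castration cannot be told apart where ovary is compared with another tissue. The 20 genes that reached the background mark in 1 tissue alone were kept through that tissue, so that a higher level there follows in part from the choice of genes, and their levels are given as a description, with no difference or with a bound. Among the 138 genes measured in all 4 tissues, 23 were higher in forebrain, 21 in prostate, 19 in skin and 15 in ovary. The shares of all array genes measured in all 4 tissues were not computed, so these counts have no background to be set against. By class, forebrain had 9 of 19 carriers of neurotransmitters, amines or osmolytes, 12 of 33 amino acid carriers and 12 of 36 ion carriers. Zinc carriers were divided, with 2 of 11 higher in prostate, 2 in skin, 1 in ovary and 1 in forebrain, and of 10 sugar carriers 3 were higher in forebrain, 3 in skin, 2 in prostate and 0 in ovary.

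**Figure D4:**
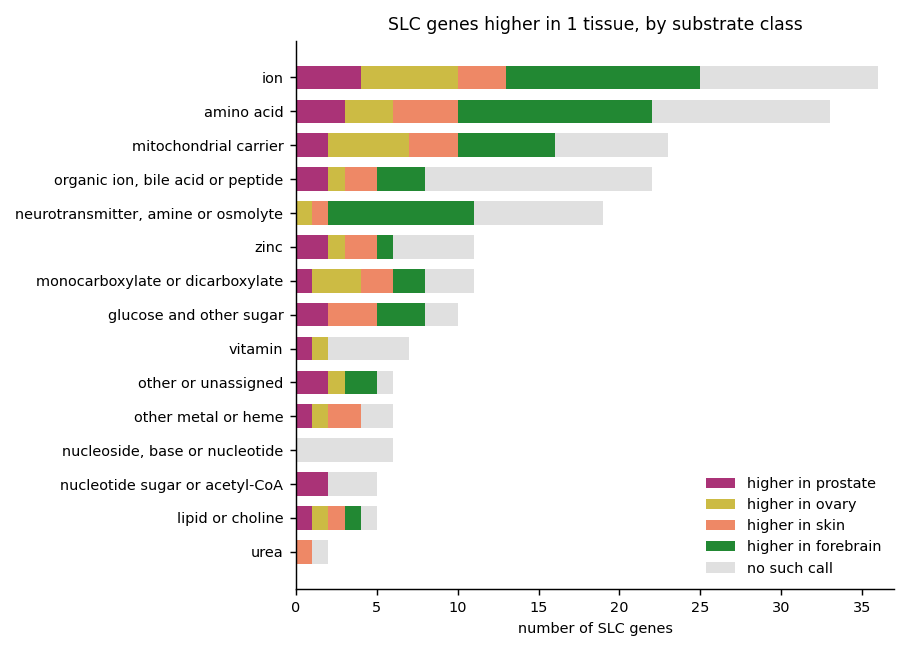
Number of SLC genes (horizontal axis) counted as higher in 1 tissue than in each other tissue, by substrate class, with colours for the tissue and grey for genes with no such call. Forebrain takes 9 of the 19 carriers of neurotransmitters, amines or osmolytes and 12 each of the amino acid and ion carriers, while no nucleoside carrier is counted in any tissue.

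In prostate, Slc30a2 exceeded the next tissue, skin, by 5.26 ± 0.35 on the log2 scale (SE, adjusted p = 7.42e-10). Its level ran from 1.82 to 5.55 in prostate (median 3.87), from -2.99 to -1.44 in ovary, from -2.42 to -0.65 in skin and from -7.33 to -4.92 in forebrain, where 3 of 5 arrays were well above background. Its prostate DHT arrays thus still lay above every array of the other tissues. Slc39a7 ran from 3.67 to 5.18 in prostate and exceeded ovary by 1.55 ± 0.14. The anion exchanger Slc26a4 exceeded ovary by 3.41 ± 0.61, although 1 ovary array at 3.85 lay within the prostate range of 3.15 to 4.99. Slc44a4, a carrier of choline and thiamine pyrophosphate, exceeded ovary by 3.25 ± 0.32, Slc46a3 forebrain by 2.75 ± 0.23, Slc31a2, a copper carrier relative, skin by 2.27 ± 0.23, Slc12a2 forebrain by 2.04 ± 0.20, Slc10a7 ovary by 1.96 ± 0.22, Slc33a1 ovary by 1.72 ± 0.19 and Slc22a5 ovary by 1.70 ± 0.17. The arginine carrier Slc7a2 was not well above background in skin and was at least 4.53-fold higher in prostate. Of these 11 genes, Slc30a2, Slc46a3 and Slc22a5 fell with DHT and Slc39a7, Slc26a4, Slc7a2, Slc10a7 and Slc33a1 rose.

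In forebrain, Slc17a7 and Slc17a6, which load glutamate into vesicles, exceeded the next tissue by 5.82 ± 0.58 and 4.01 ± 0.79, and Slc32a1, which loads GABA and glycine, by 4.25 ± 0.47. Of the glutamate carriers of glia, Slc1a3 exceeded skin by 4.61 ± 0.29. Slc1a2 ran from 2.27 to 3.11 in forebrain and was well above background on 0 of 6 prostate, 2 of 6 ovary and 2 of 6 skin arrays. The potassium-chloride carrier Slc12a5 of neurons ran from 7.03 to 7.46 in forebrain and exceeded ovary by 6.57 ± 0.90. It also reached 3.41 on skin vehicle array 2 against a skin median of -4.59. On that array the mean level of neuronal markers was -1.05, against -5.72 to -3.21 on the other skin arrays, and that of oligodendrocyte markers 1.40, against -2.86 to -1.48. Their part in this value was not tested. The amino acid carriers Slc6a17 and Slc6a15 exceeded the next tissue by 6.97 ± 0.47 and 5.45 ± 0.49. The sugar carrier Slc45a1 ran from 1.64 to 2.41 in forebrain, and was well above background on 0 of 6 prostate, 2 of 6 ovary and 1 of 6 skin arrays. The acetylcholine carrier Slc18a3 exceeded ovary by 5.61 ± 0.78. Ovary, the next tissue for Slc6a15, Slc17a7 and Slc18a3, had 4, 3 and 3 of 6 arrays well above background for them. The sodium-calcium-potassium exchanger Slc24a2 was at least 54.7-fold and Slc4a10 at least 18.8-fold above skin, where neither was well above background. Slc2a1, the glucose carrier of the blood-brain barrier, exceeded skin by 1.36 ± 0.22, its neuronal relative Slc2a3 exceeded ovary by 1.26 ± 0.45, and Slc30a3 exceeded skin by 1.26 ± 0.39.

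In ovary, the mitochondrial carrier Slc25a21 for oxodicarboxylates ran from -2.77 to -0.36, and was at least 7.09-fold above skin, where it was not well above background. The phosphate carrier Slc17a3 was at least 7.09-fold above prostate. Slc10a2, the ileal bile acid carrier, exceeded skin by 2.93 ± 0.75, and Slc39a4, the zinc importer known from intestine, exceeded forebrain by 2.30 ± 0.42, although 1 forebrain array, at 2.52, lay above the ovary range of 1.45 to 2.35. The vitamin C carrier Slc23a1 ran from -4.42 to -1.56 in ovary and was well above background on 1 of 6 prostate, 0 of 6 skin and 1 of 5 forebrain arrays. The proton-linked carrier gene Slc16a13 exceeded skin by 1.46 ± 0.19. The sodium-proton exchanger Slc9a3 was at least 2.50-fold and the chloride exchanger Slc26a3 at least 1.16-fold above skin. The phosphate carrier Slc34a3 ran from -3.61 to -2.33 in ovary and was well above background on 0 of 6 prostate, 2 of 6 skin and 1 of 5 forebrain arrays. With background correction by normexp the difference from the highest other tissue was negative for Slc23a1, Slc17a3, Slc9a3, Slc34a3 and Slc26a3.

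In skin, the anion exchanger relative Slc4a9 ran from -1.91 to 0.72 and exceeded prostate by 3.66 ± 0.57. The amino acid carrier Slc38a4 exceeded ovary by 2.97 ± 0.49, the dicarboxylate carrier Slc13a2 by 2.94 ± 0.35, the lactate exporter Slc16a3 by 2.82 ± 0.58 and Slc2a4 by 2.63 ± 0.53. On vehicle array 1, where muscle markers were low, Slc16a3 stood at 0.69, Slc38a4 at 0.18 and Slc2a4 at -0.03, each the lowest of the 6 skin arrays. The amino acid carrier Slc6a14 ran from -5.60 to -2.07 in skin, where 3 of 6 arrays were well above background, as were 2 of 6 in ovary and none in prostate or forebrain. The mitochondrial iron carrier Slc25a37 exceeded ovary by 2.33 ± 0.60 and the sulfate carrier Slc26a2 by 2.22 ± 0.45. The zinc exporter Slc30a1 exceeded forebrain by 1.89 ± 0.33, Slc39a9 prostate by 0.73 ± 0.14 and the proton-coupled amino acid carrier Slc36a1 forebrain by 1.67 ± 0.33. Slc40a1, which fell in prostate, was higher in skin than in ovary by 1.64 ± 0.27, and Slc38a7, likewise lower with DHT in prostate, by 0.86 ± 0.14.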

How the data were processed

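RNA of 8 groups was labelled with Cy3 and hybridised to 1-colour Agilent rat arrays, per the labels. The deposited scanner tables hold the processed signal, an intensity with background subtracted and spatial trend removed by Agilent's Feature Extraction software (version 10.1 in the submitters' processing notes but 10.5.1.1 per the file headers). Control and outlier spots were left out, and each array was scaled to its 75th percentile on the log2 scale. Probes were named through RefSeq accessions (GRCr8 table), and the probe with the highest mean stood for a gene. Genes well above background on 3 or more arrays of a tissue were tested there with limma 3.58.1 (R 4.3.3, lmFit and eBayes, Benjamini-Hochberg adjusted p over all genes), and tissues were compared in 1 fit of 23 arrays with slide as a random block (correlation 0.0962). A slide held 1 array of each tissue and 1 treatment, so DHT and vehicle could not be compared within a slide. The fits were also run on simulated data with independent noise and the same spread for a gene on every array. Those data held no slide effect and no arrays of narrow spread, so they cannot speak for the fits on these arrays. The number of arrays limits the precision. Background correction by normexp used the deposited median intensity of spot and background, with an offset of 50. Named genes were the 10 largest changes that passed in each direction in prostate, the 5 lowest p-values in the other tissues, the 10 lowest p-values for the difference between tissues, the 10 largest differences per tissue, and the zinc carriers, Slc2a1, Slc2a3 and Slc2a4. Others named were chosen after their values were seen, and some genes that the rule names are not reported here. The members and lists were chosen with earlier results of these data known.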

Additional observations from a re-analysis of the deposited data

Results flagged for a closer look

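For 9 SLC genes the DHT effect differed between tissues by the moderated F test of limma, in which ovary also differed from the other tissues in sex and castration. The adjusted p was 0.00302 for the carnitine carrier Slc22a5, 0.00539 for Slc37a1, 0.0247 for the vesicular monoamine carrier Slc18a1, 0.0251 for Slc35b1, 0.0266 for the vesicular zinc carrier Slc30a2, 0.031 for the lysosomal glutamine carrier Slc38a7, 0.0402 for the bicarbonate carrier Slc4a10, 0.0457 for the zinc carrier Slc39a7 and 0.0474 for Slc10a4. Of single contrasts against prostate, the DHT effect on Slc30a2 in skin (adjusted p = 0.0117) and ovary (0.0362) passed and that in forebrain (0.0641) did not.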

How the results depend on the processing

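In prostate the 23 changed SLC genes became 5 with normexp, 43 with array weights, 8 when dim probes were kept in and between 6 and 26 when 1 array was left out. With other scalings, probe averaging or the percentile over all spots (chosen after seeing the data), the count was 21 or 22. The labels do not say that same-numbered samples are paired, and the correlations of same-numbered deviations lay between -0.43 and 0.01. These correlations rest on deviations from means of 2 or 3 arrays and cannot exclude pairing. A replicate block gave 0 changed genes in prostate. The count of 0 in ovary became 1 with the array median, 43 with array weights and 0 to 39 without 1 array, that in forebrain became 9 with normexp, 1 with the array median and 0 to 1 without 1 array, and that in skin was 0 in every fit run. The 9 genes that differed between tissues became 1 with normexp, 5 with no filter, 5 with no slide term, 5 without the 3 vehicle arrays of narrow spread, 101 with array weights and 2 to 53 without 1 array. Genes higher in ovary became 15 with normexp, those in skin 53 with normexp and 15 in vehicle groups only, and those in prostate 15 in vehicle groups only. Leaving out 1 array gave 47 to 52 genes for forebrain, 23 to 28 for ovary, 21 to 25 for prostate and 20 to 26 for skin. With normexp the sign turned for Slc18a1 in prostate (-0.0103) and for the ovary difference of Slc23a1 (-0.2087), Slc17a3 (-0.4439), Slc9a3 (-0.7534), Slc34a3 (-0.7448) and Slc26a3 (-1.4012). The cause of these changes was not tested.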
